A study of Caenorhabditis elegans with 33 samples.

Results

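Auxin-treated *C. elegans* L3 larvae that carry the *cec-4* mutation were compared with auxin-treated larvae of the matching strain without it, where auxin serves to deplete DPY-27 in both and the genotypes differ in *cec-4*. The comparison uses 6 of the 33 RNA-seq libraries of the series, chosen by their labels: 3 auxin-treated libraries of *TIR1; dpy-27::AID; cec-4*, called the *cec-4* degron strain here, and 3 auxin-treated libraries of *TIR1; dpy-27::AID*, called the degron strain. Each library was made from poly(A) RNA of whole larvae. Both strains carry *ieSi57*, in which the *eft-3* promoter drives the plant F-box protein TIR1 fused to mRuby broadly across tissues, and *dpy-27::AID::MYC (xoe41)*, which puts an auxin-inducible degron on DPY-27. The *cec-4* degron strain also carries *cec-4 (ok3124)*. Larvae of both strains were grown from synchronized L1 on plates with 4 mM auxin for 24 hours, so TIR1, the degron and auxin are shared by both groups. Untreated larvae of the same strains (the *cec-4* degron strain against the degron strain), *cec-4; dpy-21* against *dpy-21*, and *cec-4* against N2 give the *cec-4* effect in other backgrounds, with 3 libraries each. These are all without auxin. For a few genes, values are also given for *cec-4* on auxin and for *dpy-27::AID* with and without auxin. The *dpy-27::AID* strain carries the degron but not the TIR1 transgene. The question is which genes differ with *cec-4* when DPY-27 is targeted for depletion; DPY-27 protein is not measured by these libraries. The strains were separate crosses, with 1 strain for each genotype, so *cec-4* and other differences between the strains cannot be told apart. The labels do not say whether replicates were separate cultures, so p-values measure only the spread between these libraries.

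DPY-27 is the condensin IDC subunit that sets this complex apart from mitotic condensin. Condensin IDC binds both X chromosomes of hermaphrodites and lowers their transcription. CEC-4 is a chromodomain protein of the nuclear envelope that binds methylated histone H3 lysine 9 and anchors heterochromatin at the nuclear periphery. Larvae build a new cuticle at each molt, and the epidermis transcribes its parts in waves: precuticle proteins and the collagens of the annular furrows come early in a cycle, and many other collagens come later.

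The *cec-4* transcript was listed at 0, 5.69 and 0 FPKM (fragments scaled to transcript length and library depth) in replicates 1, 2 and 3 of the *cec-4* degron strain, against 13.6, 15.6 and 0 FPKM in the degron strain. One library of the strain with intact *cec-4* was thus also at 0, and the difference did not pass the test (limma, adjusted p = 0.505). The *dpy-27* transcript, which the degron does not target, had 25.4, 31.7 and 33.8 FPKM against 34.8, 32.1 and 32.9 FPKM. The spacing of low values gave depths of 16.5 to 22 M fragments. Of 5592 genes having a median of at least 20 FPKM over the series, 99 were listed at 0 in at least 1 of the 6 libraries, so a 0 can be a failed estimate. On the first principal component of the 6 libraries (29.8% of the variance) replicate 1 of the degron strain stood apart. It lay at -151, and the other 5 lay between -34.7 and 73.5. On the second (20.7%) replicate 2 of that strain lay lowest, at -109. Replicate 1 correlated with its replicates at 0.815 and 0.829, and the *cec-4* libraries correlated with each other at 0.818 to 0.828. Because of the first component, results are also given without replicate 1 of the degron strain. None of the 6 vitellogenin genes, which the adult intestine transcribes, reached the level needed for testing.

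Of 13309 genes tested (mean of at least 1 FPKM over the series), 304 (2.28%) differed on auxin at an adjusted p under 0.05 (limma on log2(FPKM + 0.1), Benjamini-Hochberg adjustment). Of these, 118 (0.887% of the genes tested) were higher and 186 (1.4%) were lower in the *cec-4* degron strain. Genes of the cuticle and its precursor were among those called in both directions: 11 precuticle and 6 furrow collagen genes were lower, and 17 collagens of the *col* family were higher. At an unadjusted p under 0.05 there were 2134 genes (16%). In 297 of the 304 genes the 3 libraries of one strain did not overlap those of the other, which held for 23.9% of all genes tested. Without replicate 1 of the degron strain, 70 genes (0.526%) were called, 15 higher (0.113%) and 55 lower (0.413%), and 68 of them were among the 304. Without replicate 2 of the *cec-4* degron strain the counts were 21 higher and 108 lower, without its replicate 3 they were 29 and 118, and without replicate 2 of the degron strain they were 56 and 89. Fitting only the 6 libraries gave 76 higher and 103 lower. A core of 58 genes (11 higher and 47 lower) was called whichever of the 6 libraries was left out.

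**Figure D1:**
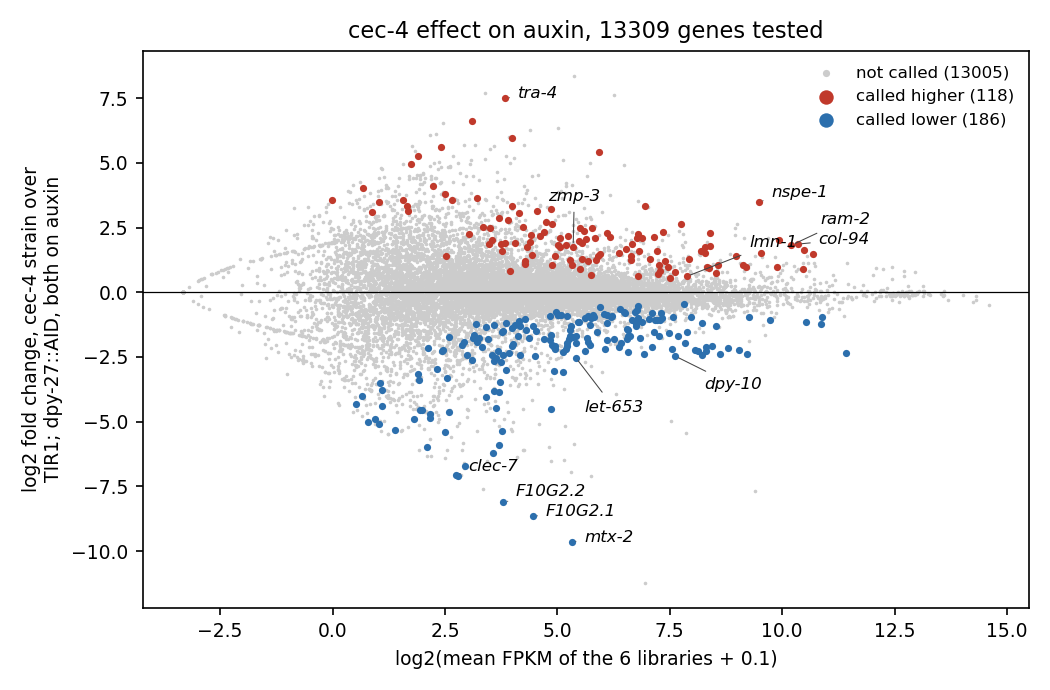
Each point is a gene, with log2 of the mean FPKM of the 6 libraries (plus 0.1) on the horizontal axis and the log2 fold change of the *cec-4* degron strain over the degron strain on the vertical axis, both on auxin. The 118 genes called higher are red and the 186 called lower are blue, and genes of low level that are not called reach changes as large as the called ones.

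Precuticle proteins form the temporary apical matrix that patterns the cuticle and lines narrow tubes. Of the 18 genes listed, 15 were tested. Of these 11 were lower in the *cec-4* degron strain, at log2 fold changes between -3.81 and -1.51, and none was higher. The median over the 15 genes was -2.1, against 0.00 over all genes tested. This list and the others were chosen with earlier results of these data known, so such contrasts are descriptions. The member with the smallest adjusted p was *let-653*, which encodes a zona pellucida domain protein needed for the excretory duct tube. Its level was 11.6, 16 and 10.5 FPKM in the *cec-4* degron strain, against 76.3, 67.1 and 72.5 FPKM in the degron strain. All libraries of the *cec-4* strain were thus far below those of the other strain, with a log2 fold change of -2.52 ± 0.30 (SE) and an adjusted p of 3.9e-05 (limma), and the call held whichever library was left out.

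The other called precuticle genes followed the same order. The zona pellucida protein gene *noah-2* had 129, 134 and 127 FPKM in the *cec-4* degron strain, against 745, 492 and 452 FPKM in the degron strain (log2 fold change -2.08 ± 0.36 (SE), limma adjusted p = 0.00187). The lipocalin gene *lpr-3*, on the X, had 148, 223 and 190 FPKM against 1421, 810 and 783 FPKM (log2 fold change -2.39 ± 0.45 (SE), limma adjusted p = 0.0049), and its adjusted p was 0.0534 without replicate 1 of the degron strain. In both genes that replicate held the highest value. The fibrillin-like gene *fbn-1* had 0.753, 0.592 and 5.15 FPKM against 13.4, 31.6 and 20.0 FPKM, and its call (limma adjusted p = 0.0465) held in only 1 of the 6 fits that left a library out. The lipocalin genes *lpr-4*, *lpr-5* and *lpr-6*, the leucine-rich repeat genes *let-4*, *sym-1* and *egg-6*, and *noah-1* made up the rest. The 4 tested members that were not called, *dex-1*, *dyf-7*, *lpr-1* and *lpr-2*, did not exceed 11.1 FPKM in any of the 6 libraries. Without replicate 1 of the degron strain, 5 of the 15 were called lower and the median was -1.86.

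All 6 collagens of the annular furrows, *dpy-2*, *dpy-3*, *dpy-7*, *dpy-8*, *dpy-9* and *dpy-10*, were lower in the *cec-4* degron strain. Their log2 fold changes lay between -2.46 and -1.97, with a median of -2.23. The furrows are the circumferential grooves of the cuticle, and loss of any of these collagens abolishes them and makes a dumpy worm. For *dpy-10* the levels were 43.1, 76.7 and 60 FPKM in the *cec-4* degron strain, against 453, 271 and 271 FPKM in the degron strain (limma adjusted p = 0.00551). For *dpy-7*, on the X, they were 99.1, 130 and 120 FPKM against 666, 398 and 480 FPKM (limma adjusted p = 0.0102). The libraries of the strains did not overlap in any of the 6 genes, but all 6 calls rested on replicate 1 of the degron strain. Without it 0 of 6 passed the threshold, with adjusted p between 0.056 for *dpy-10* and 0.139 for *dpy-9* (limma), and the median was -1.99.

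Genes of 2 enzymes that hydroxylate prolines in collagen chains, which makes the triple helix stable, were lower as well. The catalytic subunit gene *dpy-18* had 80.1, 63.5 and 75.2 FPKM in the *cec-4* degron strain, against 180, 141 and 130 FPKM in the degron strain (log2 fold change -1.04 ± 0.19 (SE), limma adjusted p = 0.00287). Its partner *phy-2* had 42.1, 47.9 and 36.5 FPKM against 108, 83.0 and 95.2 FPKM (log2 fold change -1.17 ± 0.24 (SE), limma adjusted p = 0.00829). The *cec-4* libraries were the low ones in both. Leaving out replicate 1 of the degron strain gave adjusted p of 0.0354 for *dpy-18* and 0.0683 for *phy-2* (limma). The gene *phy-2* was singled out after its values were seen.

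Collagens of the *col* family were more often higher than lower. The table held 156 *col* genes and 99 of them were tested, of which 17 were higher and 3 were lower in the *cec-4* degron strain. A log2 fold change above 0 was found in 75 of the 99 (median 0.86), and in 49.8% of all genes tested. Among the called genes were *col-94*, *col-107* and *col-125*. In the *cec-4* degron strain *col-94* had 1997, 1994 and 2100 FPKM, against 406, 684 and 636 FPKM in the degron strain (3.62-fold, limma adjusted p = 0.00557). For *col-107* the values were 1598, 2389 and 2476 FPKM against 477, 819 and 807 FPKM (3.11-fold, limma adjusted p = 0.00287). For *col-125* they were 1696, 2965 and 2683 FPKM against 686, 909 and 966 FPKM (2.82-fold, limma adjusted p = 0.00235). In all 3 genes every *cec-4* library was above every library of the other strain, which a rule that named *col-107* and *col-125* required. The 3 lower genes were *col-110*, *col-124* and *col-128*, and *col-128* had 9.76, 10.1 and 12.8 FPKM against 78.0, 34.1 and 38.0 FPKM. Replicate 1 of the degron strain had the lowest family score of the 6 libraries (-1.19, against -0.61 and -0.58 in its replicates), and without it 2 genes were called higher and 0 lower, with a median of 0.87. Fragments of near-identical collagen genes can be split between them by the quantification, so single members are less certain than the family.

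The remaining body-shape collagens gave no call. Of 12 tested genes of this list, which includes *dpy-13* and *dpy-4*, 0 passed and the median was -0.43, or -0.10 without replicate 1 of the degron strain. The molting list holds regulators and effectors of the molt. At an adjusted p under 0.05 it had 0 higher and 2 lower genes of 27 tested (median -0.58). In 14 of the 27 all *cec-4* libraries were below all libraries of the other strain, and in 2 they were above. The strains did not overlap, in either direction, for 23.9% of all genes tested. The molting genes called were *dpy-18* and *nas-37*, an astacin protease that digests the old cuticle. For *nas-37* the values were 4.01, 9.68 and 6.13 FPKM in the *cec-4* degron strain, against 117, 34.3 and 38.4 FPKM in the degron strain, with an adjusted p of 0.036 (limma) and of 0.218 without replicate 1 of the degron strain.

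**Figure D2:**
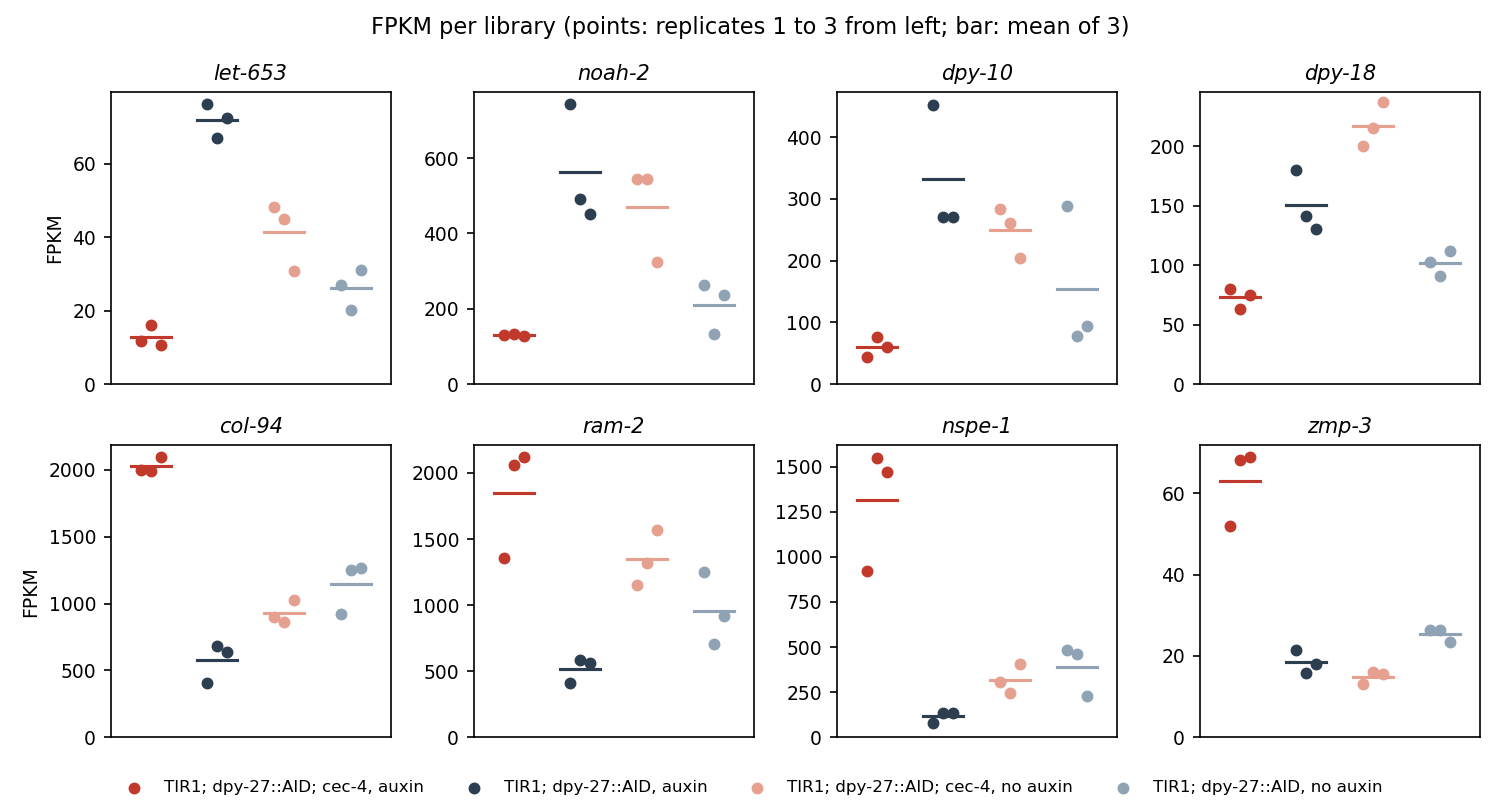
FPKM of 8 genes in each of the 12 libraries of both strains, with and without auxin; points are replicates 1 to 3 from left to right and bars are means of 3. The *cec-4* degron strain on auxin has the lowest mean for *let-653*, *noah-2*, *dpy-10* and *dpy-18* and the highest for *col-94*, *nspe-1*, *zmp-3* and *ram-2*, and single points meet untreated libraries for *noah-2* (134 against 133 FPKM) and *ram-2* (1354 FPKM).

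Other genes of the epidermis and its matrix were among those called. Of 62 tested hedgehog-related and patched-related genes, which nematodes use in cuticle formation, 3 were lower and 0 were higher (median 0.12, or 0.38 without replicate 1 of the degron strain), where 1.4% of all genes tested were lower and 0.887% higher. They were *wrt-10*, with 121, 82.9 and 77.3 FPKM in the *cec-4* degron strain against 577, 385 and 357 FPKM in the degron strain, and the patched-related genes *ptr-25* and *ptr-4*. The values of *ptr-25* were 8.13, 9.30 and 7.37 FPKM against 24.1, 28.2 and 27.6 FPKM (limma adjusted p = 0.00109), with no overlap between strains. The epithelial membrane protein gene *cuti-1* had 36.8, 52.2 and 28.2 FPKM against 281, 164 and 168 FPKM (limma adjusted p = 0.000773). Of 26 tested cuticlins 1 was lower, *cutl-6*, and 0 were higher. Among 27 tested astacin proteases 2 were higher, *nas-1* and *nas-9*, and 1 was lower, with a median of 1.02. Of 13 tested epidermis markers 1 was higher, *mup-4*, a transmembrane protein of the attachments between muscle and cuticle, with 66.6, 106 and 99.8 FPKM against 27, 37.2 and 31.8 FPKM (limma adjusted p = 0.0167, and 0.106 without replicate 1 of the degron strain). The epidermis list as a whole had a median of 0.04, or 0.21 without that replicate. Without it the calls of *ptr-4*, *cutl-6*, *nas-1* and *nas-9* were also lost (limma adjusted p of 0.137, 0.0971, 0.137 and 0.271), and 0 cuticlins, astacins or epidermis markers were called. Each of these counts is of 1 to 3 genes.

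Among genes that were lower and held whichever library was left out, several lay outside these groups. The cytochrome P450 gene *cyp-23A1* had 2.64, 2.29 and 1.94 FPKM in the *cec-4* degron strain, against 19.3, 9.53 and 11.4 FPKM in the degron strain. The antimicrobial peptide gene *cnc-3* had 53.7, 41 and 58.8 FPKM against 291, 207 and 171 FPKM. For the uncharacterized gene *F44E2.4* the values were 35.3, 27.9 and 27.1 FPKM against 123, 107 and 93.7 FPKM (limma adjusted p = 8.02e-05). These 3 genes were named by a rule that required strains without overlap. The chemoreceptor gene *srh-237* had 0.376, 0.15 and 0 FPKM against 5.62, 7.39 and 7.01 FPKM, and was the single gene called of 60 chemoreceptors tested.

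Genes that were higher in the *cec-4* degron strain and held whichever library was left out were led by *nspe-1*, of a nematode-specific peptide family. It had 923, 1545 and 1472 FPKM, against 81.6, 135 and 132 FPKM in the degron strain (11.3-fold, log2 fold change 3.5 ± 0.55 (SE), limma adjusted p = 0.00109). The matrix metalloproteinase gene *zmp-3* had 51.9, 68.1 and 69.0 FPKM against 21.5, 15.9 and 18 FPKM (3.39-fold, limma adjusted p = 0.00174). The gene *cri-2*, which encodes a protein like tissue inhibitors of metalloproteinases, had 354, 527 and 450 FPKM against 113, 178 and 145 FPKM (3.06-fold, limma adjusted p = 0.00174). An extracellular protease gene and a gene related to protease inhibitors were thus both higher. The values of *ram-2* were 1354, 2058 and 2124 FPKM against 411, 588 and 559 FPKM (3.53-fold, limma adjusted p = 0.00138). The uncharacterized genes *Y39G8B.10*, *T20D4.12* and *F22B7.9* were 8.38-fold, 10.1-fold and 4.17-fold higher, and held in all such fits. With a smaller change, *ZK632.9* was 1.95-fold higher (limma adjusted p = 0.00547, and 0.0534 without replicate 1 of the degron strain).

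Another 8 families were looked at after their members had been seen among the called genes, so their counts are descriptions. Of all genes tested 0.887% were higher and 1.4% were lower. Of 12 tested galectin genes (*lec*), which encode lectins that bind galactose-containing sugars, 4 were higher and 0 lower (median 0.83). One of them, *lec-6*, had 1905, 1774 and 1818 FPKM in the *cec-4* degron strain against 759, 1110 and 1122 FPKM in the degron strain. Of 47 tested transthyretin-like genes (*ttr*), 4 were higher and 0 lower (median 0.63), and *ttr-6*, on the X, had 652, 725 and 898 FPKM against 290, 459 and 345 FPKM. Of 17 genes of secretory transport and folding in the endoplasmic reticulum, 0 were higher and 4 were lower (median -0.30): *ero-1*, *tram-1*, *sec-22* and *sar-1*. Without replicate 1 of the degron strain 0 genes of these 3 families were called, with medians of 0.67, 0.44 and -0.20. Of the others, 2 of 5 *pud*, 2 of 11 *abu* and 2 of 4 annexin genes were higher, and 3 of 8 cadherin genes and 2 of 6 collagen-modifying enzyme genes were lower, with no call in the opposite direction. Without that replicate these counts were 1, 0, 0, 2 and 1. Of the 5 *pud* genes, 4 had every *cec-4* library above every library of the other strain. The remaining 1 had every one below, at a log2 fold change of -6.31, and was not called.

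**Figure D3:**
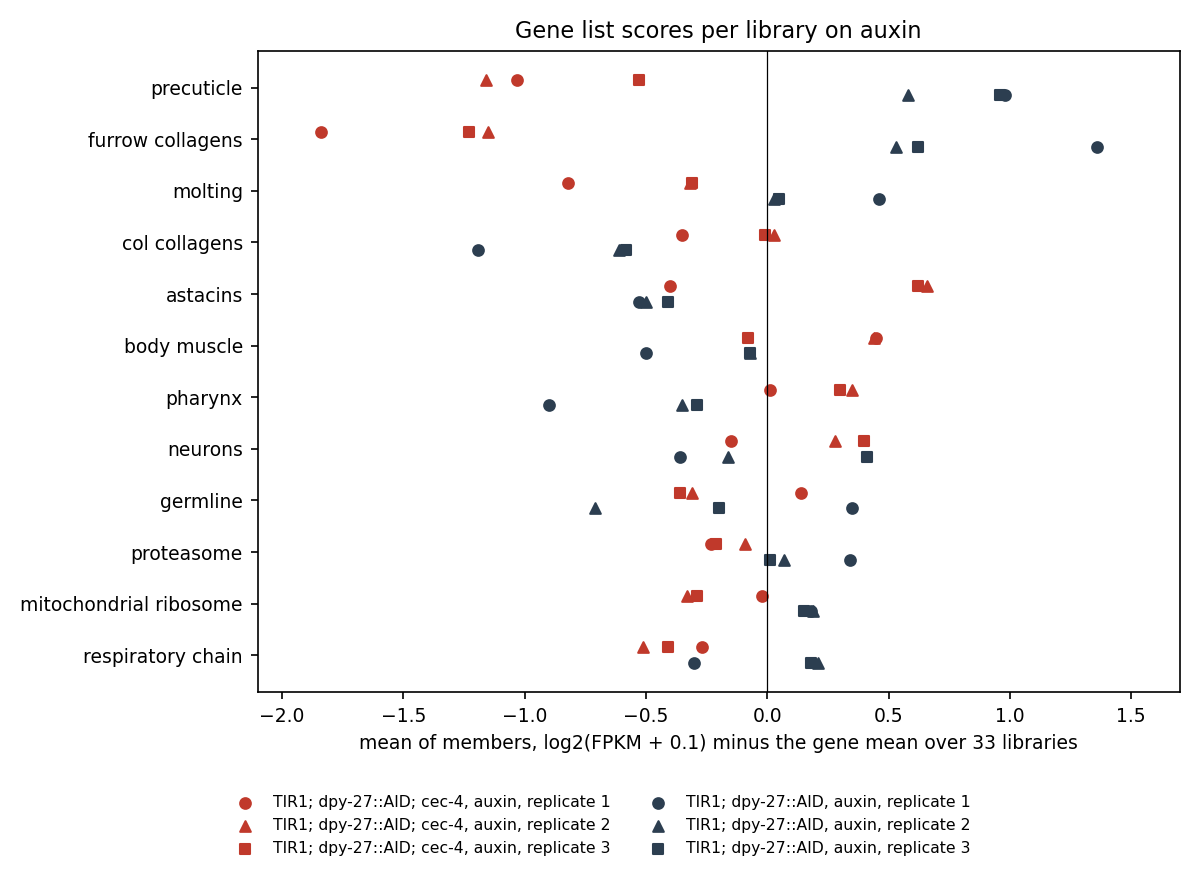
Score of 12 gene lists in each of the 6 auxin-treated libraries, the mean over its members of log2(FPKM + 0.1) minus the gene's own mean of all 33 libraries. Strains separate for the precuticle, furrow collagen, molting, *col*, astacin, pharynx, proteasome and mitochondrial ribosome lists, and overlap for the germline, neuron, muscle and respiratory chain lists.

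Lists of basic cell functions had medians a little below 0 and few calls. All 33 proteasome genes had a log2 fold change below 0 (median -0.28), and 17 had every *cec-4* library below every other, but 0 passed the test. Over all genes tested 49.8% were above 0, and 23.9% had strains that did not overlap in either direction. Of 70 mitochondrial ribosomal protein genes 67 were below 0 (median -0.39), and 1 was called, *mrpl-24*, at a log2 fold change of -0.64 ± 0.16 (SE, limma adjusted p = 0.0342). Its strains did not overlap, yet its call was lost whichever library was left out. Among 43 respiratory chain genes 0 were called (median -0.22), and among 78 cytosolic ribosomal protein genes 0 were called (median -0.09).

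A few chaperone and lipid genes were called, 1 or 2 in each list, where 1.4% of all genes tested were lower. Of 60 chaperone genes 2 were lower, with a list median of -0.36. One was the mitochondrial chaperonin gene *hsp-60*, at 228, 46.1 and 146 FPKM in the *cec-4* degron strain against 353, 344 and 307 FPKM in the degron strain, and the other was *dnj-27*, which encodes a DnaJ protein of the endoplasmic reticulum. The fatty acid synthase gene *fasn-1* had 146, 125 and 118 FPKM against 286, 248 and 222 FPKM (limma adjusted p = 0.0352), as 1 of 18 genes of fatty acid synthesis. Of 51 beta-oxidation genes 2 were lower: the acyl-CoA synthetase gene *acs-3* and the carnitine palmitoyltransferase gene *cpt-6*. For these 5 genes the adjusted p lay between 0.106 and 0.297 without replicate 1 of the degron strain. The S-adenosylmethionine synthetase gene *sams-1* had 1392, 1397 and 1337 FPKM against 2305, 2138 and 2247 FPKM and did not pass (limma adjusted p = 0.0534).

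Large families of defence, detoxification and signalling gave few calls, at most 3 genes in either direction. Over all genes tested 0.887% were higher and 1.4% were lower. Of 101 C-type lectin genes 1 was higher and 1 lower, of 76 antimicrobial genes 0 and 2, of 109 cytochrome P450 and glucuronosyltransferase genes 1 and 3, of 156 F-box and MATH domain genes 3 and 0, and of 179 nuclear receptor genes 1 and 2. The higher nuclear receptor gene was *nhr-8*, with 41.5, 35.6 and 41.7 FPKM in the *cec-4* degron strain against 16, 19.9 and 20.8 FPKM in the degron strain. Of 39 genes of the intracellular pathogen list 1 was lower, *drh-1*, a gene related to the RIG-I sensor of viral RNA, with 10.5, 4.51 and 6.60 FPKM against 14.1, 19.1 and 16.8 FPKM (limma adjusted p = 0.0145). Neither gene overlapped between strains, which held for 297 of the 304 called genes and so adds little. The call of *nhr-8* held in 1 of the 6 fits that left a library out, and that of *drh-1* in 4. None of 100 neuropeptide, 11 heterochronic or 13 basement membrane genes was called, nor was any of the 8 tested genes of a sex determination list that does not hold the called gene *tra-4*. Leaving out replicate 1 of the degron strain, the C-type lectin list had 0 higher and 1 lower, the antimicrobial list 0 and 1, the cytochrome P450 list 0 and 2, and the F-box and nuclear receptor lists 0 and 0.

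Cell type markers were checked in the same fit. None of 30 germline, 14 sperm, 19 intestine, 28 neuron, 20 muscle or 12 pharynx genes was called. All 12 pharynx genes had a log2 fold change above 0, where 49.8% of all genes tested did. Their median was 0.68, or 0.32 without replicate 1 of the degron strain. Of the muscle genes 19 of 20 were above 0 (median 0.28), the neuron median was 0.24, the intestine median was -0.06 and the germline median was -0.23. Without that replicate these medians were 0.12, 0.15, -0.13 and -0.08. Pharynx scores were 0.01, 0.35 and 0.30 in the *cec-4* degron strain, against -0.90, -0.35 and -0.29 in the degron strain, and molting scores were -0.82, -0.32 and -0.31 against 0.46, 0.03 and 0.05. The strains did not overlap in either score, and the part of pharyngeal tissue or of molting stage in the precuticle and collagen differences was not tested. In whole larvae, fewer cells of a type and less RNA per cell cannot be told apart.

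The smallest adjusted p belonged to 3 neighbouring genes of chromosome V (WBcel235): *clec-7*, a C-type lectin gene at 7328392 to 7330002, *F10G2.2* at 7331168 to 7331777 and *F10G2.1* at 7332553 to 7333424. All 3 were listed at 0 in every library of the *cec-4* degron strain. In the degron strain on auxin, *F10G2.1* had 45.4, 21.7 and 64.7 FPKM (limma adjusted p = 4.86e-13), *F10G2.2* had 28.3, 30.5 and 24.3 FPKM and *clec-7* had 12.9, 12.7 and 13.9 FPKM. They were also listed at 0 in the untreated *cec-4* degron strain and in *cec-4* with and without auxin, which makes 12 of the 15 libraries labelled *cec-4*. The other 3 were *cec-4; dpy-21*, in which *F10G2.1* had 32.9 to 68.7 FPKM. The 18 libraries without *cec-4* were all above 0, with a lowest value of 21.7 FPKM for *F10G2.1*. A value of 0 thus went with most, not all, strains that carry *cec-4*. The gene *dpy-21* is on the same chromosome, at 17936282 to 17949193. The cause of this pattern was not tested.

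Another pair on chromosome V differed in another way. The arrestin-domain gene *arrd-22* (3410520 to 3412858) had 19.6, 26.4 and 18.7 FPKM in the *cec-4* degron strain on auxin, against 87.2, 74.9 and 82.3 FPKM in the degron strain on auxin (limma adjusted p = 0.00109). The Frizzled receptor gene *cfz-2* (3441504 to 3444877) had 7.57, 14.1 and 10.4 FPKM against 28.4, 29.9 and 27.1 FPKM (limma adjusted p = 0.00546). Without auxin *arrd-22* had 31.3, 25.9 and 17.7 FPKM in the *cec-4* degron strain against 75.4, 83.7 and 78.6 FPKM in the degron strain. It also had 55.5 to 60.3 FPKM in untreated *dpy-27::AID*, but 27.1 to 37.4 FPKM in N2, and the *cec-4* degron strain was at or below the N2 range. In *dpy-27::AID* on auxin *arrd-22* had 63.4, 53.6 and 19.1 FPKM in replicates 1, 2 and 3. The low value belongs to replicate 3, whose X:A score (defined with the X-linked genes) was 0.43, against -0.34 and -0.37 in replicates 1 and 2. That library was thus unlike its replicates in these 2 values. For *cfz-2* it was not, with 20.4, 14.1 and 13.5 FPKM in replicates 1, 2 and 3. Whether its label is right was not tested. Both genes were singled out after their values were seen in all strains.

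**Figure D4:**
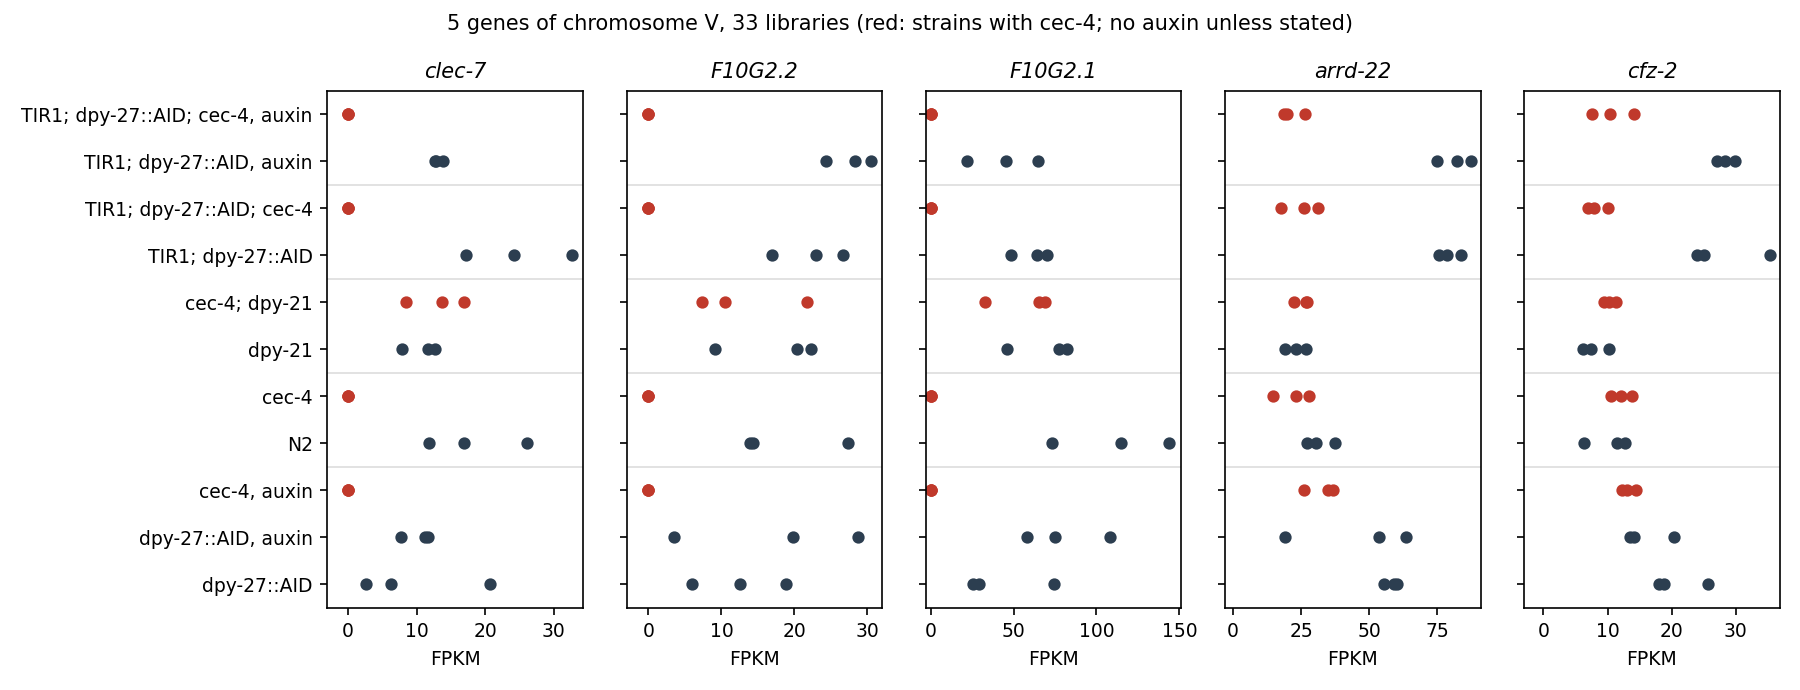
FPKM of *clec-7*, *F10G2.2*, *F10G2.1*, *arrd-22* and *cfz-2* in all 33 libraries, with 1 row per condition, 3 points per row and strains that carry *cec-4* in red. The first 3 genes are at 0 in 12 of 15 *cec-4* libraries and above 0 in *cec-4; dpy-21*, and *arrd-22* reaches 74.9 to 87.2 FPKM in the degron strain on auxin.

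Of the 304 called genes 47 had a 0 in at least 1 of the 6 libraries, and 11 were at 0 in all 3 libraries of one strain, for which no fold is given. The metaxin gene *mtx-2*, whose product acts in mitochondrial import, was listed at 0 in all 3 libraries of the *cec-4* degron strain on auxin, against 85.0, 71.4 and 82.8 FPKM in the degron strain (limma adjusted p = 0.000283), while the untreated *cec-4* degron strain had 31.7, 75.7 and 87.0 FPKM. The kinesin gene *klp-3* was also listed at 0 in all 3, against 10.2, 16.4 and 14.3 FPKM, and its call was lost whichever library was left out. In the other direction, the sex determination gene *tra-4*, on the X, had 3.36, 41.2 and 40.9 FPKM and *pud-3* had 21.6, 28 and 1.47 FPKM, and both were listed at 0 in all libraries of the degron strain on auxin. Without its replicate 1 their adjusted p were 0.113 and 0.0961 (limma). The *pud* genes have near-identical copies among which reads can be split.

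X-linked genes were called about as often as all genes: 46 of 2061 (2.23%), of which 12 were higher and 34 were lower. Lower X-linked genes that held whichever library was left out included *R57.2*, with 51.0, 46.0 and 56.0 FPKM in the *cec-4* degron strain against 212, 141 and 179 FPKM in the degron strain, and the short-chain dehydrogenase gene *dhs-25*, with 117, 78.6 and 77 FPKM against 260, 287 and 258 FPKM. The higher X-linked genes of smallest p were *F41D9.2*, *ZK899.1*, *spin-3*, *adt-3* and *Y41G9A.10*. The Spinster-like transporter gene *spin-3* had 20.6, 25.7 and 32.1 FPKM against 5.86, 6.56 and 8.14 FPKM, and the ADAMTS-like protease gene *adt-3* had 17.6, 25.2 and 24.5 FPKM against 5.41, 5.77 and 6.28 FPKM. For *F41D9.2* the values were 73.9, 77.4 and 110 FPKM against 33.6, 31.8 and 31.5 FPKM. The rule that named these 5 genes required strains that do not overlap, so their lack of overlap adds nothing. Without replicate 1 of the degron strain their adjusted p lay between 0.0534 and 0.144 (limma).

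Across the X the median log2 fold change was 0.11, and 57.8% of genes were above 0, against -0.02 and 48.3% on the autosomes. The X median was 0.071 without replicate 1 of the degron strain. Without auxin it had the opposite sign, at -0.226, against 0.003 on the autosomes. The shift on auxin was spread along the chromosome, with medians of 0.116 at the left end, 0.118 in the centre and 0.094 at the right end. In 9 windows of 2 Mb the medians ranged between -0.014 and 0.211. The X:A score, the median X-linked minus the median autosomal log2 level after centring each gene, was 0.50, 0.63 and 0.62 in the *cec-4* degron strain, against 0.39, 0.46 and 0.47 in the degron strain. The strains did not overlap, with an exact two-sided permutation p of 0.10, the smallest that 3 against 3 allow. The difference of 0.14 was 0.08 without the filter on FPKM (exact permutation p = 0.3). Untreated scores were -0.12, -0.16 and -0.36 in the *cec-4* degron strain against -0.03, -0.02 and 0.09 in the degron strain, also without overlap and in the opposite order. Autosomal arms, which hold much of the H3K9-methylated chromatin, had 2.17% of genes called, and autosomal centres had 2.47%. Within 1 Mb of *cec-4* on chromosome IV 7 genes (2.17%) were higher and 2 (0.621%) were lower of 322 tested. The shares were 0.887% and 1.4% over all genes tested, and 1.08% and 1.12% over chromosome IV.

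None of 13 tested dosage compensation genes was called, with a median of 0.11. The *sdc-2* gene, which recruits the complex to the X, had 10.8, 13.5 and 12.3 FPKM in the *cec-4* degron strain against 6.67, 11.6 and 7.65 FPKM in the degron strain (limma adjusted p = 0.41). For *dpy-21*, which encodes the H4K20 demethylase of the complex, the adjusted p was 0.948. Of 20 genes of perinuclear chromatin 1 was called: the lamin gene *lmn-1* was higher, at 249, 299 and 303 FPKM against 170, 192 and 192 FPKM (1.53-fold, limma adjusted p = 0.0141). All *cec-4* libraries were above all others, and the adjusted p was 0.103 without replicate 1 of the degron strain.

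Without auxin the same strains differed at 11 genes (0.0827%), 6 higher (0.0451%) and 5 lower (0.0376%), with 1153 (8.66%) at an unadjusted p under 0.05. Of the 11 genes, 6 were also called on auxin, which is 1.97% of the calls on auxin and 54.5% of those without. Of these 6, *clec-7*, *F10G2.1*, *F10G2.2*, *arrd-22* and *cfz-2* had the same sign, and *dpy-18* had the opposite one. Untreated, *dpy-18* was higher, at 200, 215 and 237 FPKM in the *cec-4* degron strain against 103, 91.2 and 112 FPKM in the degron strain (log2 fold change 1.09, limma adjusted p = 0.00723). Without replicate 1 of the untreated degron strain the untreated count was 274, without its replicate 3 it was 28, and without replicates 2 or 3 of the untreated *cec-4* strain or replicate 2 of the other it was 5 or 6. Of the 304 genes called on auxin 34.2% had the same sign without auxin (55.9% of the higher and 20.4% of the lower genes), against 43.1% of all genes tested. Precuticle genes had an untreated median of 0.66 and furrow collagens of 1.11, with 0 genes of either list called there. The *col* family and the astacins had untreated medians of 0.71 and 1.0, of the same sign as on auxin.

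The difference between the *cec-4* effects on and off auxin was tested directly as an interaction and passed for 191 genes (1.44%), 30 higher (0.225%) and 161 lower (1.21%), with 2062 (15.5%) at an unadjusted p under 0.05. They included 10 of the 15 precuticle and all 6 furrow collagen genes. Without replicate 1 of the degron strain on auxin the count was 63, without replicates 1 and 2 of the untreated *cec-4* strain it was 88 and 85, and without replicates 1 and 2 of the untreated degron strain it was 320 and 66. For *let-653*, untreated levels were 48.2, 45.1 and 30.9 FPKM in the *cec-4* degron strain against 27, 20.1 and 31 FPKM in the degron strain, opposite in order to the levels on auxin. Over the 11 conditions of the series, 163 of the 186 lower genes (87.6%) had their lowest mean in the *cec-4* degron strain on auxin, against 17.6% of all genes tested, and 92 (49.5%) had their highest mean in the degron strain on auxin, against 9.39%. Of the 118 higher genes 58 (49.2%) were highest in the *cec-4* degron strain on auxin, against 15% of all genes tested, and 85 (72.0%) were lowest in the degron strain on auxin, against 12.4%. Both strains thus lay at the edge of the series for many of these genes, a description that the choice of the genes partly fixes.

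**Figure D5:**
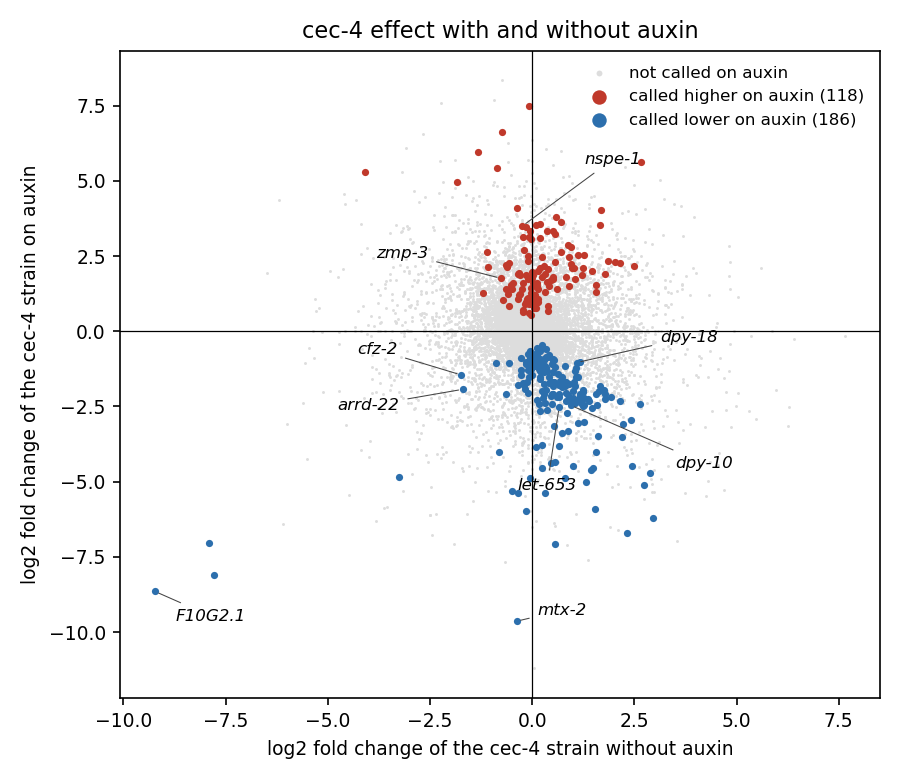
Log2 fold change of the *cec-4* degron strain over the degron strain on auxin (vertical axis) and without auxin (horizontal axis), with 1 point per gene. Genes called lower on auxin have an untreated median of 0.48 and those called higher a median of 0.04, and the chromosome V genes lie low on both axes.

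In *dpy-21* mutants, whose X-linked genes are also derepressed, adding *cec-4* gave 0 called genes (0.0%) and 519 (3.90%) at an unadjusted p under 0.05 (limma), and a fit of only those 6 libraries gave 13. In otherwise wild-type larvae, *cec-4* against N2 gave 26 (0.195%), 19 higher (0.143%) and 7 lower (0.0526%), with 2202 (16.5%) at an unadjusted p under 0.05. Of these, *clec-7*, *F10G2.1* and *F10G2.2* were also called on auxin. That count was 1337 without replicate 3 of N2, 90 without its replicate 2, 11 without replicate 1 of *cec-4*, and 0 when only those 6 libraries were fitted. The genes called on auxin had the same sign in 52.3% of cases in the *dpy-21* pair (54.5% of all genes tested) and in 44.4% of cases in the *cec-4* and N2 pair (51.4%). These pairs share no library with the auxin comparison.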

How the data were processed

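RNA-seq of poly(A) RNA from L3 larvae was trimmed and quantified by the authors, whose processing notes name cutadapt 2.3, FastQC 0.11.8, Salmon 1.9.0, DESeq2 1.42.0 and WBcel235. The deposited values are FPKM for 21975 genes in 33 libraries, already scaled between libraries, and no read counts were used here, so count models were not run. Genes with a mean of at least 1 FPKM over the series (13309) were tested with limma 3.58.1 in R 4.3.3 on log2(FPKM + 0.1), with all 33 libraries sharing one variance estimate, an intensity trend, no batch term, and Benjamini-Hochberg adjustment at 0.05. Fold changes are on that scale and understate changes of low genes. Further steps used Python 3.11.15. One library outside the comparison, of *dpy-27::AID* on auxin, had an X:A score unlike its replicates. It enters the shared variance, the means over all libraries and the ranks over conditions, and its own values are given only for chromosome V genes. The fit was tested on simulated data.

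Genes were named by rule: the 10 of smallest p in each direction with libraries that do not overlap, 5 such X-linked genes, the 5 largest changes at a mean of at least 5 FPKM, up to 4 called members per list, and dosage compensation genes. Other members were named after their values were seen (*noah-1*, *noah-2*, *lpr-3*, *lpr-4*, *lpr-5*, *egg-6*, *fbn-1*, *dpy-8*, *dpy-9*, *phy-2*, galectin, *ttr* and secretory genes). Members and gene lists were chosen with earlier results of these data known. Alternatives were other pseudocounts, filters, scalings, fits and left-out libraries.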

Additional observations from a re-analysis of the deposited data

Results flagged for a closer look

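The effect of *cec-4* on auxin differed from its effect without auxin, by the interaction term of the limma fit, for 191 genes of those tested. The values below are the log2 fold change on auxin minus that without auxin, and all had an adjusted p under 0.05. The 2 comparisons use different libraries of the same strains. All values are from the main fit, and the count was 63 to 320 when a library was left out. Several of the genes, such as *acs-3* and *nas-37*, lost their call on auxin without replicate 1 of the degron strain.

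Among genes of the precuticle and cuticle the difference was -3.18 for *let-653*, -3.44 for *lpr-3*, -3.26 for *noah-2*, -3.40 for *dpy-10*, -2.99 for *dpy-7* and -2.97 for *dpy-9*. It was -2.13 for *dpy-18*, -1.97 for *phy-2*, -3.57 for *cuti-1*, -3.21 for *wrt-10*, -2.2 for *ptr-25*, -2.40 for *ptr-4*, -5.32 for *nas-37*, -6.03 for *cutl-6* and -3.64 for *col-128*. All of these were lower in the *cec-4* degron strain on auxin.

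Other genes lower on auxin had differences of -3.70 (*cyp-23A1*), -2.56 (*F44E2.4*), -2.59 (*cnc-3*), -2.44 (*R57.2*), -1.79 (*dhs-25*) and -5.68 (*srh-237*). Those of metabolism and secretion had -1.25 (*dnj-27*), -1.49 (*fasn-1*), -3.48 (*acs-3*), -2.59 (*cpt-6*), -3.15 (*ero-1*) and -0.70 (*sar-1*). For *mtx-2* it was -9.26, a value set by the pseudocount because the gene was listed at 0 in 3 libraries.

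Genes higher on auxin had differences of 2.15 (*col-94*), 3.74 (*nspe-1*), 2.53 (*zmp-3*), 2.08 (*cri-2*) and 3.08 (*Y39G8B.10*), and on the X of 1.91 (*F41D9.2*), 1.76 (*ZK899.1*) and 3.75 (*Y41G9A.10*).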

How the results depend on the processing

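The auxin comparison kept its directions, but its counts of called genes depended on the libraries. Main counts were 118 higher and 186 lower genes. Without a filter on FPKM there were 68 higher, and fitting only the 6 libraries gave 76 higher and 103 lower. Leaving out each library in turn gave 15 to 151 higher and 55 to 164 lower. Without auxin the 11 genes became 17 without the filter and 5 in the fit of its 6 libraries alone, with 5 to 274 when a library was left out. The 191 genes of the interaction became 126 without the filter, with 63 to 320. In *dpy-21* mutants the 0 genes became 1 with a pseudocount of 1, 7 without the filter, 1 with equal FPKM sums (an alternative chosen after seeing the data) and 13 in the fit of its 6 libraries alone, with 0 to 2. For *cec-4* alone the 26 genes became 9, 15, 56 and 0 under the same 4 settings, with 11 to 1337. The X:A difference of 0.14 was 0.08 without the filter and 0.12 to 0.18 when a library was left out. The cause was not tested.

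With a replicate block the auxin counts were 110 higher and 173 lower. The numbers pair no samples by the labels. The levels of same-numbered libraries of the 2 strains on auxin correlated at 0.779, 0.808 and 0.83. After each gene's mean in its condition was subtracted, the correlations of same-numbered libraries were 0.0102, 0.0385 and 0.0161. With that mean subtracted, each library correlated best with its own number, a hint from the data only. Of 69 called genes followed singly through the alternatives, 40 lost the call without replicate 1 of the degron strain on auxin, 27 kept it whichever library was left out, and 35 lost it in the fit of 6 libraries. No sign was reversed. Median-of-ratios factors were equal in all libraries (1.023), so that scaling could change nothing. Low FPKM and single 0 values limit the precision of weakly expressed genes.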
